A study of Mus musculus with 12 samples.

Results

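A set of 786 regions of open chromatin in GATA1-null G1E cells is described here: sites found both in asynchronous and in mitotic G1E cells and in no list of the GATA1-restored G1E-ER4 line. The peaks of 12 replicate lists on chromosomes 1 to 19 were merged where they shared at least 1 bp, which gave 263720 regions on mouse build mm9. The 786 members had a peak in at least 2 of 3 asynchronous and at least 2 of 3 mitotic G1E lists and in none of the 6 G1E-ER4 lists. They are 0.298% of all merged regions and 2.33% of the 33793 regions that met the G1E conditions alone. Presence and absence in the lists chose the members and is no finding. Neither genes nor sequence of mm9 were at hand, so regions are given by position alone.

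GATA1 is the zinc finger transcription factor that drives terminal red cell maturation, binding GATA motifs together with partners such as FOG1, TAL1 and LMO2. Progenitor cells rely on the related factor GATA2, which GATA1 replaces at shared chromatin sites during maturation, an exchange known as the GATA switch. In mitosis chromosomes condense, transcription largely stops and many factors leave chromatin, while part of the accessible sites stays open, a property studied as mitotic bookmarking. DNase I cuts DNA best where nucleosomes are displaced, so DNase-seq peaks mark such open sites.

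The study asked how far accessible chromatin persists through mitosis, with 3 libraries in each of 4 groups. G1E cells carry a disrupted Gata1 gene, made in strain 129 embryonic stem cells, and are labelled as holding Ter119-CD71- and Ter119-CD71+ cells. G1E-ER4 is their subline with an estradiol-inducible GATA1, labelled Ter119+CD71+, and every library of it had 100 nM estradiol for 22 h. No G1E library is labelled with estradiol, so absence from G1E-ER4 cannot be told apart between GATA1 activity, estradiol, the more mature state and the line itself. Mitotic cells of both lines had 7 h of nocodazole at 200 ng/ml, were fixed like the asynchronous cells and were sorted for histone H3 phosphorylated at serine 10, so mitosis, drug and sorting cannot be told apart either. The identity of the lines was not checked against marker genes. The labels do not say whether replicates were separate cultures, so p-values measure the spread between these libraries, which may be technical.

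Each list holds the 100000 peaks of highest signal of its library, without read counts, so depth is unknown and a missing peak means only that the site ranked below the list's end. Strength is given as rank within a list, where 1 is the strongest peak, and a member's rank is that of its best peak. Replicate 1 of mitotic G1E stood apart. It held 89.6% of the 25006 shared sites, those found in at least 2 of 3 lists of all 4 groups, against 91.8% to 98% in the other 5 G1E lists, and its signal curve was the flattest of the 12, with the peak at rank 10000 at 1.86 times the last one. The main stage differences of the members are given with and without it.

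Presence in the G1E lists was uneven among the members. The asynchronous lists held 699, 693 and 708 of the 786 members in replicates 1, 2 and 3. The mitotic lists held 360, 652 and 679. Replicate 1 of mitotic G1E was thus low, with 45.8% of members, while the other mitotic replicates, at 83% and 86.4%, came near the asynchronous range of 88.2% to 90.1%. All 3 lists of both stages held 94 members (12%). The commonest pattern, 434 members (55.2%), was all 3 asynchronous and 2 mitotic lists, and 233 (29.6%) had 2 of each. Of the 667 members found in 2 of 3 mitotic lists, 426 (63.9%) lacked only mitotic replicate 1. Under the same rule 551 members were found without that library, but 255 or 228 without mitotic replicate 2 or 3, since at least 2 mitotic lists were still asked for and replicate 1 was then one of them.

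The members ranked much lower in mitosis, although they were chosen for being found there. Their median rank was 24317, 26951 and 26447.5 in asynchronous replicates 1, 2 and 3. In mitotic replicates 1, 2 and 3 it was 58012.5, 54291 and 48232. Every mitotic list lay below every asynchronous one. The means were 25905 ± 1398 and 53512 ± 4937 (SD, n = 3 each), a difference of 27607 ranks (exact permutation test, two-sided, p = 0.1, the smallest that 3 libraries against 3 allow). Here 10 such tests were made, and after Benjamini-Hochberg adjustment over them this p was 0.143. The rule asked the same of both G1E stages, but also absence from every G1E-ER4 list. The part of that condition in the difference was not tested. Without mitotic replicate 1 the difference was 24325 ranks, and among the 50000 highest peaks of each list, where ranks span a smaller range, it was 9762.

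**Figure D1:**
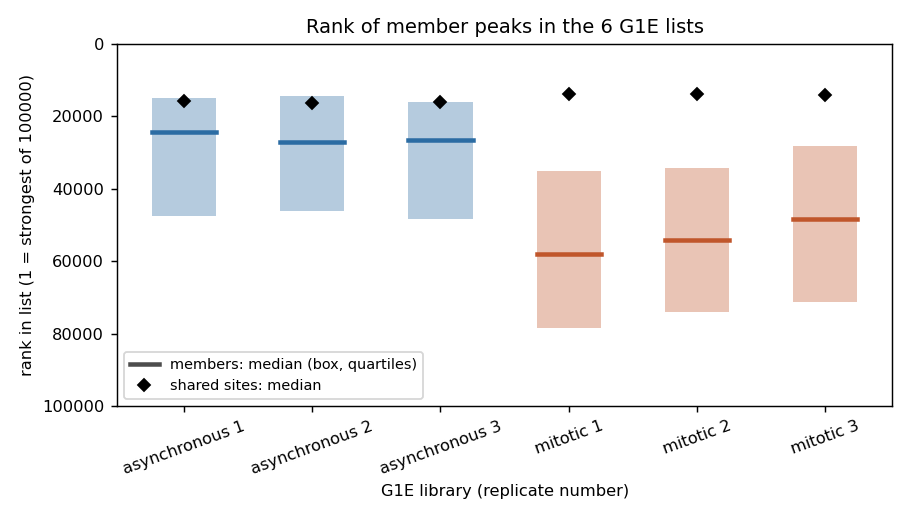
Rank of the member regions (vertical axis, 1 is the strongest of 100000 peaks) in each of the 6 G1E libraries (horizontal axis). Lines are medians and boxes quartiles over the members that a list held, and diamonds are the medians of the shared sites. Member medians lie at 24317 to 26951 in asynchronous and 48232 to 58012.5 in mitotic lists, while the diamonds stay between 13769 and 16189.

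The strong end of the set thinned out in mitosis. Among the 20000 strongest peaks stood 287, 241 and 241 members in asynchronous replicates 1, 2 and 3, and 27, 43 and 99 in mitotic replicates 1, 2 and 3. Of the members that each list held, this was 41.1%, 34.8% and 34% in asynchronous and 7.5%, 6.6% and 14.6% in mitotic replicates. Beyond rank 50000 lay 21.1% to 24% of the members that an asynchronous list held, and 46.8% to 57.8% of those that a mitotic list held. The best-placed member of a list ranked between 1060 and 3068 in asynchronous and between 4666 and 7693 in mitotic cells. These are different members in different lists. A mean rank of at most 20000 at both stages was found for 23 members (2.93%). These counts were not made over all regions, so they are not read as particular to the members. The median shared site stood within the 20000 strongest peaks in every G1E list of both stages.

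The shared sites did not move this way. Their median rank was 15654 to 16189 in asynchronous and 13769 to 14206 in mitotic G1E lists, slightly better in mitosis, with a mean difference of -2075 ranks (exact permutation p = 0.1). The stage difference of the members exceeded that of the shared sites by 29682 ranks (exact permutation test, two-sided, p = 0.1, the smallest possible). By rule the shared sites are in G1E-ER4 lists of both stages and the members in none. This p thus compares sets chosen to differ there. Without mitotic replicate 1 the excess was 25868 ranks, and among the 50000 highest peaks it was 11278.

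The difference was also read on the scale of the signal. The authors' signal at the median member was 2.64, 1.74 and 1.9 times that of the list's last peak in asynchronous replicates 1, 2 and 3, and 1.13, 1.19 and 1.21 times in the mitotic ones. But the signal curves of the mitotic lists are flatter for all sites. Relative to the median shared site of the same list, the median member had 0.64, 0.703 and 0.646 of its signal in asynchronous lists and 0.687, 0.567 and 0.631 in mitotic lists. On this scale the stages overlapped, at 0.663 ± 0.0348 and 0.628 ± 0.0602 (SD, n = 3 each; exact permutation p = 0.4). The overlap came from mitotic replicate 1 alone. Without it both mitotic ratios lay below all 3 asynchronous ones, at a mean of 0.599 against 0.663 (exact permutation p = 0.1, the smallest that 3 libraries against 2 allow). This ratio was chosen after the ranks were seen.

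Member by member, the order of the stages was mostly the same. Of the 786 members, 624 (79.4%) had the better mean rank in asynchronous lists and 162 (20.6%) in mitotic lists, while the better asynchronous rank was found for 49.2% of all 33793 regions of both G1E stages and for 41.6% of the shared sites. The median difference per member was 17191 ranks, with quartiles of 3343 and 32110. A difference of more than 20000 ranks was found for 356 members (45.3%) in favour of asynchronous cells and for 53 (6.74%) in favour of mitosis, beside 13.6% and 15.2% of all regions of both G1E stages.

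A stricter reading asks that ranks of the stages do not overlap. Of the 94 members in all 6 G1E lists, 46 had every asynchronous rank above every mitotic rank, and 1 had the opposite order. Over all 20566 regions of the 6 G1E lists, the asynchronous order was found for 12.9% and the mitotic order for 19.6%. The members' share of 48.9% in the asynchronous order was thus above this background, and that of 1.06% in the mitotic order below it. The counts depend on the lists asked for. The asynchronous order held for 229 of 426 members without mitotic replicate 1, for 77 of 154 without mitotic replicate 2 and for 73 of 140 without mitotic replicate 3, beside 21.4%, 18.1% and 17.6% of all regions in the same lists. The mitotic order then held for 4, 3 and 3 members, beside 24.7%, 22.4% and 22.9% of all regions. Without asynchronous replicate 1, 2 or 3 of G1E the asynchronous order held for 61 of 112, 56 of 107 and 52 of 99 members, beside 19%, 15.3% and 14.6% of all regions. The mitotic order held there for 3, 2 and 1 members, beside 29.7%, 24.2% and 23.4% of all regions. Without asynchronous replicate 1 of G1E-ER4 the orders held for 67 and 3 of 178 members, beside 12.9% and 19.6% of all regions. In each of these settings the members' share was thus above the background in the asynchronous order and below it in the mitotic order. Over the lists that held a member, whatever their number, the asynchronous order was found for 335 of 786 members, beside 17.2% of all 33793 regions of both G1E stages, and the mitotic order for 38, beside 19.8%.

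**Figure D2:**
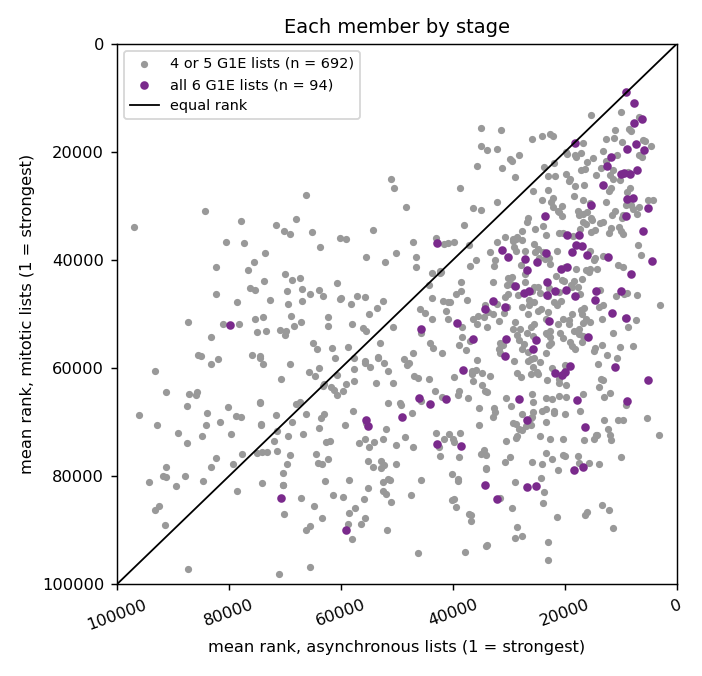
Mean rank in the mitotic lists (vertical axis) against mean rank in the asynchronous lists (horizontal axis) for each of the 786 members, with 1 the strongest and both axes running towards it. Of the points, 624 lie below the line of equal rank, the side of better asynchronous ranks, and the 94 members of all 6 lists are shown in purple.

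The pattern of presence went with strength. Members of all 3 asynchronous and all 3 mitotic lists had a median mean rank of 19931 in asynchronous and 45901 in mitotic cells. Those of all 3 asynchronous and 2 mitotic lists stood at 24852 and 49906. The 233 members with 2 lists of each stage were weak at both, at 57369 and 62880, and 60.5% of them ranked better in asynchronous cells. The 25 members with 2 asynchronous and 3 mitotic lists stood at 62711 and 61932. The median difference per member was 21010 and 22284 ranks in members of all 3 asynchronous lists, with 3 and 2 mitotic lists, and 2946 and 6266 ranks in members of 2 asynchronous lists. A list leaves out the weakest sites, so grouping by presence also sorts the members by their asynchronous rank. That rank enters the difference, and the part of the grouping in it was not tested.

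Member peaks were also narrower in mitosis for their list. Their median width was 886, 473 and 530.5 bp in asynchronous replicates 1, 2 and 3, where the median of all autosomal peaks was 763, 356 and 415 bp. In mitotic replicates 1, 2 and 3 it was 762, 417.5 and 414 bp, where all peaks had medians of 943, 777 and 608 bp. Member peaks were thus wider than their list's median in every asynchronous library and narrower in every mitotic one. In bp their widths overlapped between the stages, and the list medians averaged 511 bp in asynchronous and 776 bp in mitotic lists. The ratio to the list's median was 1.26 ± 0.0859 and 0.675 ± 0.136 (SD, n = 3 each), a difference of -0.581 (exact permutation test, two-sided, p = 0.1, the smallest possible). Without mitotic replicate 1 the difference was -0.675. For shared sites the ratio was 1.81 ± 0.223 and 1.66 ± 0.0858 (SD, n = 3 each), a difference within the spread between libraries (exact permutation p = 0.4).

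The merged member regions had a median width of 1017.5 bp, with quartiles of 766.5 and 1409.5 bp and a range from 259 to 6562 bp. Shared sites were wider, at a median of 2994 bp. A wide region has more chance to touch a peak of another list, so the demand that no G1E-ER4 list overlaps a member by even 1 bp favours narrow regions.

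Summits of member peaks lay at nearly the same place in both stages in 5 of the 6 libraries. Between pairs of these 5, the median distance of the summits in a member was 24 to 37 bp. In pairs with mitotic replicate 1 it was 81 to 186 bp, and for shared sites that library was likewise apart, at 67 to 115 bp against 21 to 34 bp. Over all 6 libraries the distance averaged 67.9 bp between stages and 48.3 bp within them, a difference of 19.6 bp (exact permutation test, two-sided, p = 0.1). Without mitotic replicate 1 the difference was 3.75 bp, without mitotic replicate 2 or 3 it was 46.3 or 30.5 bp, and without asynchronous replicate 1, 2 or 3 it was 12.3, 2.75 or 10.3 bp. The size of the difference thus depended on single libraries.

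How the members compare with other G1E sites was read from the 33793 regions found at both G1E stages, sorted by how many of the 6 G1E-ER4 lists held them. With no such list, the 786 members had medians of the mean rank of 29374 in asynchronous and 53073 in mitotic cells. The 1030 regions of 1 G1E-ER4 list stood at 41867 and 54083. In asynchronous cells the members were thus stronger than regions with 1 or 2 G1E-ER4 lists, and their median was also ahead of those with 3, 4 and 5 lists, at 31537, 31625 and 33218. In mitotic cells the median rank improved from 54083 with 1 list to 12938 with all 6, and the members stood at the weak end. The median difference per region was 17191 ranks in members, 10419, 8795, 10752, 7413 and 2312 with 1 to 5 lists, and -1679 with all 6. These medians describe the lists that chose the regions and carry no test.

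**Figure D3:**
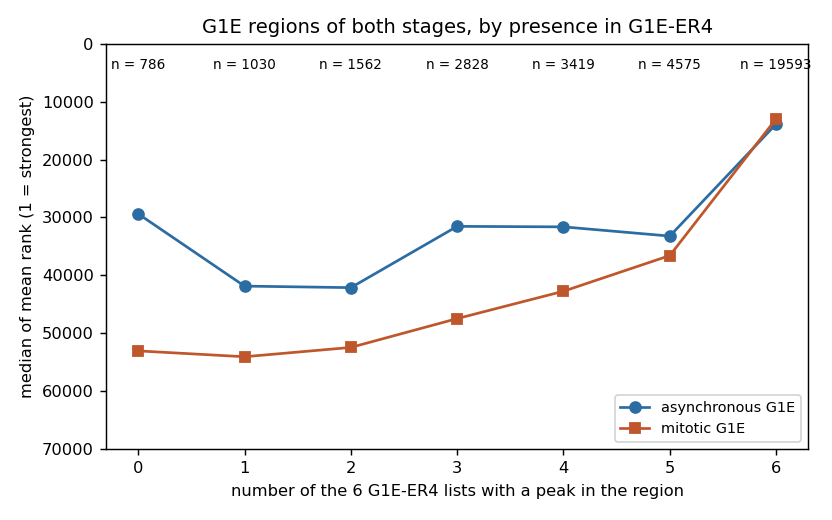
Median of the mean rank (vertical axis, 1 is the strongest) in asynchronous and mitotic G1E lists for regions of at least 2 lists of both G1E groups, by the number of G1E-ER4 lists with a peak there (horizontal axis; the 786 members at 0). The gap between the stages is widest at 0 lists, at 29374 against 53073, and closes at 6 lists, at 13848 against 12938.

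Sites that G1E-ER4 held at a single stage were set beside the members. A group of 2290 G1E sites of both stages was held by at least 2 asynchronous G1E-ER4 lists and by no mitotic one. In G1E these stood at medians of 21995 in asynchronous and 45833 in mitotic lists, with a median difference of 18243 ranks, and 85.9% ranked better in asynchronous cells. The members stood at 17191 ranks and 79.4%, and the difference between the sets was not tested. The 294 sites held by at least 2 mitotic and no asynchronous G1E-ER4 lists went the other way, with a median difference of -3553 ranks. The stage at which G1E-ER4 lacked a site thus went with the direction of the difference in G1E, which was not tested.

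The mirror set, found in at least 2 of 3 lists of both G1E-ER4 groups and in no G1E list, had 1195 regions. In G1E-ER4 its median rank was 55610.5, 57603 and 58423.5 in asynchronous replicates 1, 2 and 3, and 49162, 57609 and 55327 in mitotic ones. These sites were weak at both stages, and the stages overlapped, with a difference of -3180 ranks (exact permutation p = 0.3). The stage difference of the G1E members was 30786 ranks larger than that of the mirror set, which did not pass the 0.05 threshold (exact permutation p = 0.065, two-sided, over 400 exchanges of the line labels among libraries of a stage, adjusted 0.143). Each line's values come from its own regions, so this p compares differently chosen sets and measures no effect of the line. Leaving out a library also changed the sets, with 228 to 1169 members. The p was 0.015 to 0.04 with any 1 of mitotic replicates 2 and 3 of G1E, asynchronous replicates 1 and 3 of G1E-ER4 or the 3 mitotic replicates of G1E-ER4 left out, and 0.05 to 0.11 without any 1 of the other 5 libraries. Without mitotic replicate 1 of G1E it was 0.09, with a difference of 27983 ranks. Chromosome 2 held 50% of the mirror set, and without that chromosome the difference was 30776 (exact permutation p = 0.075), an alternative added once the data had been seen.

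The strongest members kept high ranks at both stages. The 5 with the best mean rank among the 94 were chosen by rule, and their ranks are a description. The first spans chromosome 12 from 4082209 to 4083391. It ranked 13663, 4865 and 8752 in asynchronous and 12457, 7550 and 6653 in mitotic replicates 1, 2 and 3, so the stages overlapped fully, and the nearest G1E-ER4 peak lay 1574 bp away. The second spans chromosome 6 from 57484587 to 57486195, with ranks of 12470, 6005 and 4373 and of 21799, 6154 and 4666. Here mitotic replicate 1 alone was low, and the nearest G1E-ER4 peak lay 34265 bp away.

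The third, on chromosome 13 from 113461743 to 113463952, ranked 10941, 5620 and 2013 in asynchronous and 12907, 15705 and 13049 in mitotic replicates, without overlap. It lay 270 bp from a G1E-ER4 peak. The fourth is the widest of the 5, on chromosome 4 from 99720573 to 99725407, with ranks of 3875, 11926 and 7194 and of 7874, 22137 and 13857, which overlapped. The fifth, on chromosome 8 from 47672960 to 47673814, ranked 8733, 5144 and 3561 in asynchronous and 21644, 17796 and 19404 in mitotic replicates, without overlap. None of the 5 had a peak in the pooled G1E-ER4 lists.

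The members with the largest stage difference among those in all 6 lists were at the strong end in asynchronous cells. The region on chromosome 2 from 45039573 to 45040626 ranked 24135, 11543 and 14522 in asynchronous and 54116, 86948 and 93487 in mitotic replicates, a mean difference of 61450 ranks. On chromosome 19 from 9127349 to 9128190 the ranks were 10908, 23489 and 20598 and then 83225, 97534 and 55494, a difference of 60419. On chromosome 11 from 9012989 to 9014032 they were 8126, 10993 and 7650 and then 96305, 70549 and 31522, a difference of 57202. The mitotic ranks of these regions spread widely, with an SD of 21098, 21374 and 32617 over 3 lists, so each was near the end of at least 1 mitotic list.

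Only 1 of the 94 had every mitotic rank above every asynchronous one. It lies on chromosome 12 from 112746873 to 112747967, with ranks of 56169, 63921 and 36020 in mitotic and 73228, 91223 and 74862 in asynchronous replicates. It was weak at both stages, lay 249 bp from a G1E-ER4 peak and had a peak at rank 82942 in the pooled asynchronous G1E-ER4 list.

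**Figure D4:**
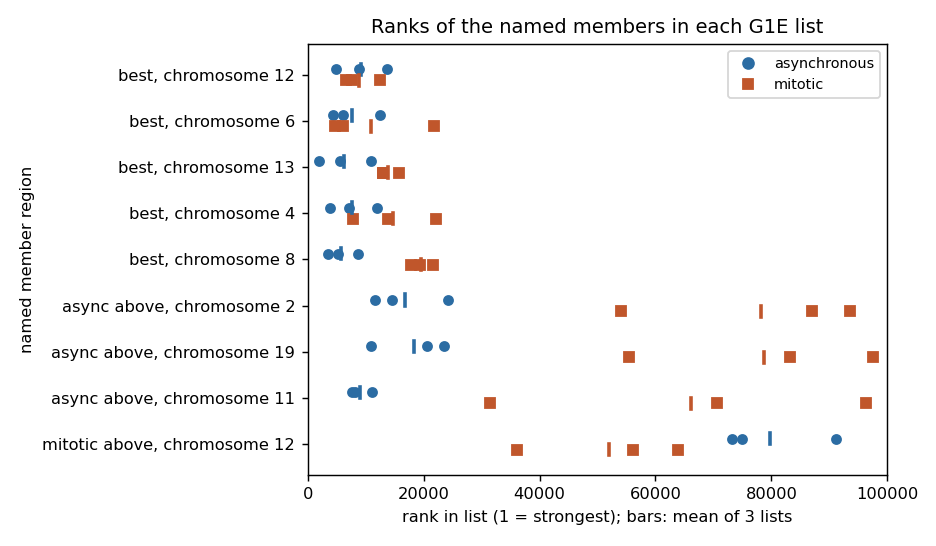
Rank in each G1E list (horizontal axis, 1 is the strongest) of the 9 named member regions (vertical axis), with asynchronous replicates as circles, mitotic replicates as squares and the mean of 3 lists as a bar. The 5 best-ranked regions stay between 2013 and 22137 at both stages, while the 3 named for their lower mitotic ranks spread from 31522 to 97534 in mitosis.

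At the threshold of the rule the values changed gradually. The 233 members with 2 lists of each stage had medians of 57369 and 62880 in asynchronous and mitotic cells. Just outside, 1185 regions had 2 asynchronous lists, 1 mitotic list and no G1E-ER4 list, at 62258 and 67392. A further 482 had 1 asynchronous and 2 mitotic lists, at 74124 and 66269, and 324 had 2 of each but also 1 G1E-ER4 list, at 63011 and 62262. The best-ranked member just inside lies on chromosome 16 from 34535092 to 34535621, at 13942 on average. The best just outside lie on chromosome 12 from 25608581 to 25609363 (1 mitotic list, mean rank 12922), on chromosome 14 from 64776750 to 64778763 (1 asynchronous list, 35198) and on chromosome 9 from 14201375 to 14202556 (1 G1E-ER4 list, 14390).

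The members lay on all 19 autosomes. Chromosome 12 held the most, 107 (13.6%), against 11.6% of the regions of both G1E stages, and chromosome 1 was next with 74 (9.41%), against 11.7%. As a share of each chromosome's G1E regions, members ranged from 1.38% on chromosome 7 to 3.69% on chromosome 18, around the 2.33% of all autosomes. Chromosome 2, which held 50% of the mirror set, had 49 members (6.23%), and chromosome 4 had 66 (8.4%), against 0.418% of the mirror set. No test was made across chromosomes, since regions are not replicates.

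**Figure D5:**
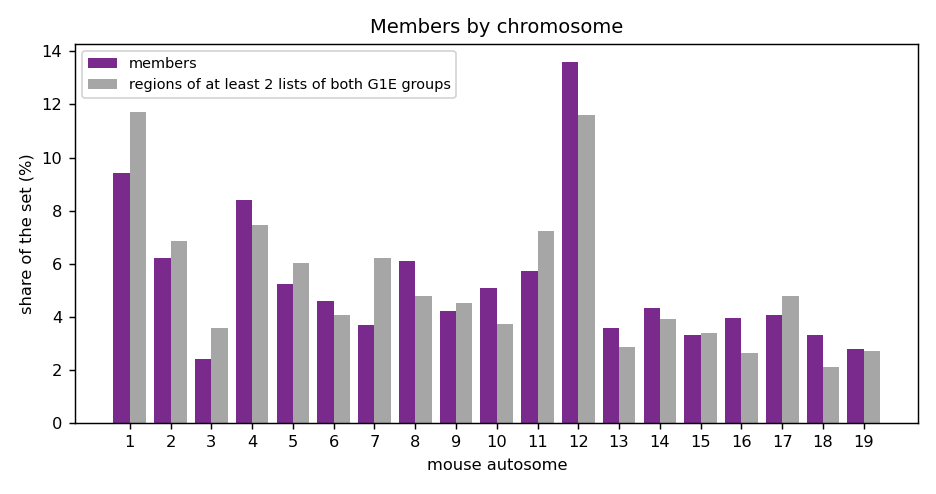
Share (vertical axis, %) of the 786 members and of the 33793 regions of both G1E stages on each mouse autosome (horizontal axis). Chromosome 12 is the highest for members, at 13.6%, and chromosomes 1 and 12 are about equal among all G1E regions, at 11.7% and 11.6%.

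Members of chromosome 12 showed less of a stage difference than the others, a split chosen after the values were seen. On chromosome 12 the median member rank was 62407, 47303.5 and 59497 in asynchronous and 49942.5, 70111 and 65169 in mitotic replicates, so the stages overlapped. Elsewhere it was 21649, 25453 and 24810 in asynchronous and 62107, 51799 and 46275 in mitotic replicates, without overlap. Of the 107 members on chromosome 12, 56 (52.3%) had the better asynchronous rank, against 568 of 679 (83.7%) elsewhere. The median difference was 851 ranks on chromosome 12 and 19470 elsewhere. Chromosomes 4 and 1 had the next lowest shares, 69.7% and 73%, with median differences of 8148 and 15691 ranks. Over chromosomes 1, 4 and 12 together 63.2% ranked better in asynchronous cells, against 86.8% over the other 16 autosomes. These chromosomes were grouped for their low shares, so the contrast follows from the choice and is no further result. Chromosome 14, among the other 16, was close to chromosome 1 at 73.5%. Most of the 107, 82, lay between 80 and 120 Mb, which also held 2821 of the 3920 G1E regions of this chromosome.

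The other G1E regions of chromosome 12 leaned towards mitosis. Of its 3813 regions of both stages that are not members 34% had the better asynchronous rank, with a median difference of -8207 ranks, against 50.4% and 79.8 ranks on the other autosomes. Chromosome 12 also took an unequal part of the lists. It held 10.8%, 14.6% and 13.6% of autosomal peaks in asynchronous G1E replicates 1, 2 and 3 and 8.15% to 10.6% in mitotic G1E. In G1E-ER4 it held 5.11%, 9.3% and 9.57% in asynchronous and 8.95% to 9.86% in mitotic lists. The part of this in the members' pattern was not tested. Without chromosome 12 the stage difference of the 679 other members was 29423 ranks (exact permutation p = 0.1).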

How the data were processed

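DNase-seq libraries of G1E and G1E-ER4 cells were aligned to mm9 with Bowtie, per the submitters' processing notes. Not given in the sources used here were the Bowtie version and how peaks were called and filtered. The deposited lists, 1 per library and 1 pooled by the authors per group, give for each peak its position, a signal of unstated normalization and the offset of its summit (another unit, in bp). They are limited to 100000 peaks, in descending order of signal, and the signal was used only within a list. Positions are counted from 1.

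Members and comparison sets were chosen with earlier results of these data known. Named regions are the 5 members of all 6 G1E lists with the best mean rank, the 3 with the largest difference of mean rank in each direction among those whose stages do not overlap, the best-ranked regions at the threshold, and the 3 windows of 1 Mb with the most members. Tests were exact permutation tests on 1 value per library, two-sided, with a threshold of 0.05. Alternatives were the 50000 highest peaks, overlap of at least 0.5 of the shorter peak, windows around summits, all 3 lists, chromosome X, each library left out, both replicate 1 libraries of G1E left out, pooled lists, means and the replicate block. Chosen after seeing the data were leaving out chromosome 2 or 12, members of all 6 lists only, and the signal ratio, with and without mitotic replicate 1. The planned gene lists and motifs need an mm9 annotation or genome and were not analysed here. The calculation was tested on simulated data. Python 3.11.15, numpy 2.4.6, pandas 2.3.3, scipy 1.17.1 and matplotlib 3.10.9 were used.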

Additional observations from a re-analysis of the deposited data

How the results depend on the processing

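The number of members was set by the rule. It was 1243 with 150 bp on either side of each summit in place of whole peaks, 94 when all 3 lists of each G1E group were asked for, 3993 from the authors' pooled lists, and 228 to 1169 on leaving out single libraries. It stayed within 1.5 times of 786 in 16 of 21 settings. The lower mitotic rank of members kept its direction in all 22 settings run, from 9762 to 29423 ranks, and its excess over shared sites in all 22, in ranks from 11278 to 29791 and as a log2 ratio of signals 0.0810 (exact permutation p = 0.4), or 0.148 without mitotic replicate 1 (exact permutation p = 0.1). The smaller width of mitotic member peaks relative to their list's median kept its direction in all 19 settings run, the window of fixed width giving no value. None of these passed 0.05, which 3 libraries against 3 cannot reach. The difference from the mirror set was 23041 to 31334 ranks on leaving out single libraries and 14436 among the 50000 highest peaks of each list (exact permutation p = 0.07), with p from 0.015 to 0.25 over all settings. The summit difference ran from 1.5 to 46.3 bp. The count of members with every asynchronous rank above was 46 to 229 on leaving out single libraries and 335 of 532 without both replicate 1 libraries of G1E. The opposite count was 1 to 4 and 31 of 532. Without both of those libraries the share over all regions was not computed, so these counts are not read further.

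Groups share replicate numbers, and whether equal numbers stand for a shared batch was not tested. Deviations of log2 ranks from the stage mean correlated at 0.296, 0.139 and 0.085 between same-numbered libraries of asynchronous and mitotic G1E. Pairs of different numbers ran from -0.312 to 0.283. Asynchronous replicate 2 and mitotic replicate 3 correlated better with each other, at 0.283, than with their own numbers. With the replicate number as a block the values are the same by construction (27607 and 29682 ranks, -0.581 in relative width, 19.6 bp, and 30786 ranks against the mirror set) and the exact permutation p was 0.25 for the first 4, the smallest that 8 arrangements allow, and 0.156 for the last. Without read counts, depth sets limits that could not be stated.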

Other observations

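The nearest other member lay at a median distance of 416441 bp, and 49 of 786 (6.23%) had one within 10 kb, while in the mirror set the median was 53206 bp and 29.4% had one within 10 kb. Chromosome 2 held 50% of the mirror set, and the spacing of that set without chromosome 2 was not computed. Of the 786 members, 385 were alone in their window of 1 Mb and 401 (51%) shared one of 162 windows with 2 to 8 members. The window with the most, 8 members, spans chromosome 12 from 109000001 to 110000000. Its members had mean ranks from 55413 to 96022 in asynchronous lists, all weaker than the median of 29374 over all members. In mitotic lists they had 32666 to 70984, on both sides of the median of 53073. The 6 G1E-ER4 lists had 1584 peaks in that window. Chromosome 5 from 65000001 to 66000000 had 6 members, with 227 G1E-ER4 peaks. Chromosome 5 from 75000001 to 76000000 had 5, with asynchronous mean ranks from 23393 to 46489 and mitotic ones from 39427 to 62289. Another 3 windows also had 5 members and come after it only by position: chromosome 8 from 69000001 to 70000000 and chromosome 12 from 117000001 to 118000000 and from 118000001 to 119000000. The chromosome 8 window stood out by its few peaks, with 45 of G1E-ER4 lists, and its members ranked 5236 to 22979 in asynchronous lists.

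By rule no G1E-ER4 peak touched a member, and the gap to the nearest one was measured. The gap had a median of 1767 bp and was at most 1 kb for 287 members (36.5%) and at most 10 kb for 663 (84.4%). For the mirror set and the nearest G1E peak the median gap was 1036 bp, with 48.7% within 1 kb. A site kept in both lines lay within 10 kb of 325 members (41.3%) and of 42.7% of the mirror set. Gaps were not computed for other regions or for random positions. These shares are thus not read as particular to either set.

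The authors' pooled lists come from the same libraries and are given as a description. The pooled asynchronous G1E list held 768 of the 786 members and the pooled mitotic one 687, at median ranks of 24402 and 48241. In the pooled G1E-ER4 lists 80 members (10.2%) had a peak in asynchronous and 29 (3.69%) in mitotic cells, at median ranks of 89395 and 85214, near the end of those lists. In all, 103 members thus had a G1E-ER4 peak once replicates were pooled. Both pooled G1E lists and neither pooled G1E-ER4 list held 583 members.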
